A study of Mus musculus with 7 samples.

Results

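The genes described here are 10 markers of the blood vessel endothelium, Sox17, Pecam1, Cdh5, Kdr, Flt1, Tek, Tie1, Eng, Emcn and Vwf, out of 12239 genes measured by mRNA sequencing of mouse muscle. They were picked by symbol, and all 10 were found in the deposited table. The list was drawn up with the higher Sox17 value of the knockout already known, so Sox17 is described without a test and the other 9 genes were tested.

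The muscle was tibialis anterior (TA), a fast-twitch muscle at the front of the lower leg, from male FVBN mice whose age is given as 5 to 6 months in the sample titles. There were 4 libraries of wild-type (WT) and 3 of knockout (C2-/-) whole muscle, and the p-values below measure the spread between these libraries. In C2-/- mice, exons 2 to 22 of Mybpc2 were replaced by a Neo cassette with LoxP sites on either side. Mybpc2 encodes fast myosin-binding protein-C, a protein of the thick filament of fast muscle fibres. The design text of the series counts 4 mice in each group, whereas 3 C2-/- libraries were analysed here.

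Endothelial cells line every capillary, and in skeletal muscle the capillaries run along the fibres and supply them. They are held together at junctions by VE-cadherin (Cdh5) and PECAM-1 (Pecam1). Vascular endothelial growth factor (VEGF) signals to them through the receptors encoded by Kdr and Flt1, and the angiopoietins through TIE2 (Tek) with TIE1 (Tie1) beside it. Endoglin (Eng) is a co-receptor for ligands of the TGF-beta and BMP family, and endomucin (Emcn) is a sialomucin of capillary and venous surfaces. Vwf is a clotting protein stored in endothelial granules and in platelets. Sox17 is a transcription factor that, within the endothelium, is best known from arteries. In whole muscle, fewer endothelial cells and less RNA per endothelial cell cannot be told apart.

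The base composition of the transcripts is shown first, because the log2 changes fell as it rose across most of these genes, with Sox17 and, less so, Kdr as exceptions. The share of G and C in the longest protein-coding transcript (GENCODE M21) ran from 41.5% in Emcn over 47.1% in Tek, 49.4% in Kdr, 50.2% in Pecam1, 50.5% in Flt1, 52.2% in Cdh5, 52.6% in Sox17 and 56.5% in Vwf to 57.4% in Eng and 57.6% in Tie1, beside a median of 50.2% over the 12173 genes matched to the annotation. The following 120-base stretches each lie in 1 coding exon and have the G and C content nearest to that of the whole transcript, with G and C in capitals. They are written on the strand of the gene, on GRCm38. Emcn is from exon 2 of 12 (chr3:137372728-137372847, plus strand), with 46.7% G and C against 44.8% in the whole coding sequence. Tek is from exon 2 of 23 (chr4:94780916-94781035, plus strand), with 46.7%. Tie1 is from exon 4 of 22 (chr4:118484640-118484759, minus strand) and Eng from exon 2 of 15 (chr2:32657543-32657662, plus strand), both with 57.5%.
Emcn: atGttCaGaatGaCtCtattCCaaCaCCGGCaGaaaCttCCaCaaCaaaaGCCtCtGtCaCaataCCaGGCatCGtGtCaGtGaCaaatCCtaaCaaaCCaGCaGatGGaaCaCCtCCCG
Tek: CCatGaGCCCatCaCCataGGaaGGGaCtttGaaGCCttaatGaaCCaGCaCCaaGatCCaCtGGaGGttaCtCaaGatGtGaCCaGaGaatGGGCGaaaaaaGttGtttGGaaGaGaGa
Tie1: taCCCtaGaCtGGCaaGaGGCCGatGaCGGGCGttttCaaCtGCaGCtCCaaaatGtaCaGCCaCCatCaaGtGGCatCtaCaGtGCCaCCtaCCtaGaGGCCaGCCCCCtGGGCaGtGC
Eng: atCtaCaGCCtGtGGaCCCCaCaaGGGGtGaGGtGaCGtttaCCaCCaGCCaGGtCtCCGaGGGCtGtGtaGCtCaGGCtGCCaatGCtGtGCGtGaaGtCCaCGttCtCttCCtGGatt
Tek and Tie1 encode receptors of the same family, yet their transcripts lie at 47.1% and 57.6% G and C.

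The promoters of Emcn, Eng and Tek are shown because Emcn and Eng passed the test in opposite directions and Tek did not pass. These are the 250 bases before the transcription start given by RefSeq on GRCm38.p6, where 6 of the 10 genes were matched (Eng, Emcn, Tek, Tie1, Kdr and Flt1). Promoters of Sox17, Pecam1, Cdh5 and Vwf were not used here. Capitals mark AGGAAG or its reverse complement CTTCCT, which holds the core letters bound by ETS factors such as ERG. Emcn is chr3:137340828-137341077, Eng chr2:32646345-32646594 and Tek chr4:94739039-94739288, all on the plus strand.
Emcn: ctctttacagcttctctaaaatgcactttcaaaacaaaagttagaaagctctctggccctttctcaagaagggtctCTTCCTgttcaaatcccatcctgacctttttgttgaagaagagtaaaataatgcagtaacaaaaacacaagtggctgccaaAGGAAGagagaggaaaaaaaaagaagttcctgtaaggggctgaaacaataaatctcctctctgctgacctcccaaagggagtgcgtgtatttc
Eng: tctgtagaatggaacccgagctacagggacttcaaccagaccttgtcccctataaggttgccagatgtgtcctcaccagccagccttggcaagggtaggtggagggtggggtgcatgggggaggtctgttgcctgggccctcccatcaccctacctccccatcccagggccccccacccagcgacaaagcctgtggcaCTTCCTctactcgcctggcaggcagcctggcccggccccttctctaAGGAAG
Tek: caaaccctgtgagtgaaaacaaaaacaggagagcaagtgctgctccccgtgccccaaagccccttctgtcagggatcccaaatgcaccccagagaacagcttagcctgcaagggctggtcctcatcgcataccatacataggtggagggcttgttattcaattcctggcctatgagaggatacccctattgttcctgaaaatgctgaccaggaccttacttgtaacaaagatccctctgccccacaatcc
The letters AGGAAG stood in 4 of the 6 promoters on either strand, with 2 matches each in Eng, Emcn and Flt1, 1 in Tie1 and no match in the windows of Tek and Kdr. They stood in 29.5% of 32851 mouse promoter windows of the same length. ACAAT, the core letters of SOX factor sites, stood in 2 of the 6 (Emcn and Tek) and in 27.7% of all windows. GGGCGG, a GC box, stood in 2 of the 6 (Kdr and Flt1) and in 32.7% of all windows. No base was shared between matches of the 3 motifs in these 6 promoters. Promoter G and C content ran from 40.8% in Emcn and 51.2% in Tek to 60.4% in Tie1, 61.6% in Kdr, 62.4% in Eng and 70.4% in Flt1, around a median of 52.4% over all windows.

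Depth differed between the libraries. Recovered reads totalled at least 14929214 in each of the first 3 WT replicates, but 4683853 in the WT library numbered 4, close to the 2613277 to 4917936 of C2-/-. A gene with 3 reads thus stood at 0.195 to 1.12 CPM (counts per 1e+06 reads), a floor for counting error only. Across the 12173 genes the log2 change fell with transcript G and C content (Pearson's r = -0.66 across genes, which share the same 7 libraries), so the changes of the 10 genes and the counts of each list below are also given after a spline of the log2 values on G and C content was removed from every library. WT replicate 4, the WT library nearest to C2-/- in depth, differed from the other WT libraries for some of the genes below, and changes and list counts against it alone are given where it moved them. In tests against WT replicate 4 alone the spread comes from the other WT libraries and from C2-/-, and the lone library is assumed to vary like them. None of 15 values (the 10 genes, the score, the sum and the 3 ratios below) had a WT library past Dixon's 95% critical value for 4 samples. With 4 samples only a gap of most of the WT range passes, so WT replicate 4 may still differ. WT replicate 4 was the extreme WT library for Kdr, Tek, Emcn, Tie1 and the Kdr to Flt1 ratio. Its gap to the nearest was 0.70, 0.76, 0.71, 0.54 and 0.74 of the WT range. Another WT library was the extreme in the remaining values. Chi-square per degree of freedom was 56.1 to 63.6 between WT replicate 4 and other WT libraries, and 9.13 to 19.3 among those. Mybpc2 itself stood at 12.41 to 12.85 log2 CPM in WT, against 3 to 8 reads per library in C2-/-. All 10 endothelial genes were well above the floor of 3 reads in every library, the lowest being Tie1 with 23 reads in C2-/- replicate 2.

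Of the 9 tested genes, Tie1, Eng and Vwf were lower in C2-/-, Emcn was higher, and Pecam1, Cdh5, Kdr, Flt1 and Tek did not pass the threshold. The test was limma on the log2 CPM values after TMM scaling (trimmed mean of M values), with Benjamini-Hochberg adjustment over all 12239 genes, and a gene passed with an adjusted p under 0.05 and a change above 1.5-fold (0.585 log2). That is 1 gene higher and 3 lower, where 20.2% of all genes passed higher, 25.0% lower and 45.2% either way. With 4 of 9 genes past the threshold, their share was near that of the whole table. Their median log2 change was -0.38, beside -0.14 over all genes. After the correction for G and C content, 0 of the 9 genes passed limma in either direction, where 20.6% of all genes did, 12.3% higher and 8.33% lower, and the median of the 9 was 0.08, beside 0.02 over all genes. At an unadjusted p under 0.05 there was 1 of 9, Tie1, where 36.4% of all genes were either way, and no other tool was run on the corrected values. Against WT replicate 4 alone, 2 of the 9 (Tie1 and Eng) passed lower and none higher, where 8.25% and 8.73% of all genes did, and 3 were lower and 2 higher at an unadjusted p under 0.05, where 17.4% and 17.5% of all genes were. With both the correction and WT replicate 4 alone, 0 passed, where 2.12% of all genes were lower and 2.88% higher. With the correction and without WT replicate 4, 2 of the 9 passed lower (Tie1 and Kdr) and none higher, where 9.72% and 16.0% of all genes did.

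**Figure D1:**
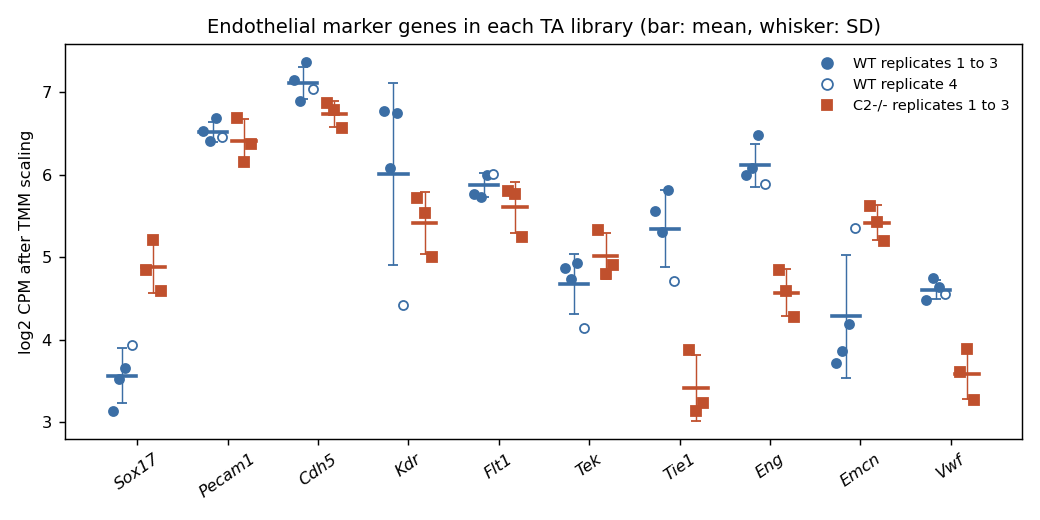
The log2 CPM value of each endothelial gene in each of the 7 libraries, with circles for WT, an open circle for WT replicate 4, squares for C2-/-, bars for group means and whiskers for the SD (n = 4 and 3). Tie1, Eng, Vwf and Cdh5 lay lower in all 3 C2-/- libraries than in any WT library, Sox17 lay higher in all 3, and WT replicate 4 is the lowest WT library for Kdr and the highest for Emcn.

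Neither junction gene passed the threshold. Pecam1, the adhesion molecule also known as CD31 and the usual marker for counting capillaries, had 6.53, 6.41, 6.69 and 6.46 log2 CPM in WT replicates 1 to 4 and 6.69, 6.16 and 6.37 in C2-/- replicates 1 to 3. The groups overlapped, and the change was -0.12 (SE 0.18, limma adjusted p = 0.595). This small value changed sign with the scaling of the libraries, to 0.04 with each library centred on its median and to 0.09 after the G and C correction. Cdh5, the adhesion protein of endothelial adherens junctions, had 7.15, 6.90, 7.37 and 7.04 in WT and 6.87, 6.78 and 6.57 in C2-/-. All 3 C2-/- libraries were below all 4 WT libraries, but the change of -0.38 (SE 0.17) missed the threshold (adjusted p = 0.0886), and it was 0.17 after the G and C correction. Cdh5 was 1 of 4 tested genes, with Tie1, Eng and Vwf, whose C2-/- libraries lay wholly below WT, as did 26.7% of all genes, and no tested gene lay wholly above, as 22.6% of all genes did.

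The VEGF receptor genes did not pass, and Kdr depended on a single library. Kdr, the main signalling receptor for VEGF-A, had 6.78, 6.08, 6.75 and 4.43 log2 CPM in WT replicates 1 to 4 and 5.71, 5.54 and 5.00 in C2-/-. WT replicate 4 was the lowest of the 7 libraries, with 94 reads, while the other 3 WT libraries were all above C2-/-. The change over all libraries was -0.59 (SE 0.50, limma adjusted p = 0.346), or -0.51 after the G and C correction. Without WT replicate 4 it was -1.12 and passed the threshold, where 26.6% of all genes passed lower and 23.5% higher. After the G and C correction without that library it was -1.02 and passed too, whereas against WT replicate 4 alone it was 0.99. Flt1, the receptor that binds VEGF with high affinity and also acts as a decoy, had 5.77, 5.74, 6.00 and 6.01 in WT and 5.81, 5.77 and 5.25 in C2-/-. The groups overlapped, WT replicate 4 lay at the top of its group by a small margin, and the change was -0.27 (SE 0.20, adjusted p = 0.275), or -0.02 after the correction. The log2 difference of Kdr from Flt1 within a library was 1.02, 0.34, 0.75 and -1.58 in WT and -0.09, -0.22 and -0.25 in C2-/-. The difference in this ratio between the groups was within this spread (change -0.32, two-sided exact permutation p = 0.743, and 0.743 after adjustment over the 3 pairs compared). Against WT replicate 4 alone, the change in this ratio was 1.40.

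Of the TIE receptor genes, Tie1 fell and Tek did not pass. Tek, which encodes TIE2, the receptor of the angiopoietins, had 4.87, 4.74, 4.93 and 4.14 log2 CPM in WT and 5.34, 4.80 and 4.91 in C2-/-. The groups overlapped, with WT replicate 4 lowest, and the change was 0.35 (SE 0.26, limma adjusted p = 0.286), or 0.08 after the G and C correction. It was 0.17 without WT replicate 4 and 0.88 against that library alone. Tie1, a receptor with no firmly established ligand of its own that modulates TIE2, had 5.56, 5.31, 5.81 and 4.72 in WT and 3.87, 3.14 and 3.24 in C2-/-. All C2-/- libraries were below all WT libraries, WT replicate 4 being the nearest. Tie1 was 3.82-fold lower in C2-/- (log2 change -1.93, SE 0.31, adjusted p = 0.00124), and against WT replicate 4 alone the change was -1.30. After the G and C correction it was -0.54 (SE 0.22, adjusted p = 0.112) and no longer passed, but with the correction and without WT replicate 4 it was -0.64 and passed.

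Within each library, as deposited, Tek stood below Tie1 in WT and above it in C2-/-. The log2 difference of Tek from Tie1 was -0.68, -0.57, -0.88 and -0.58 in WT replicates 1 to 4 and 1.47, 1.66 and 1.68 in C2-/- replicates 1 to 3, a gap between the groups much wider than the spread within either. The change was 2.28, with the smallest two-sided exact permutation p that 35 splits can give (0.0286), which became 0.0857 after adjustment over 3 pairs. WT replicate 4, which was low for both genes, had a ratio within the range of the other WT libraries, and against it alone the change was 2.18. After the correction for G and C content the change in the ratio was 0.62, with the groups still apart. The exact permutation p was again the smallest possible, 0.0286, here not adjusted over the 3 pairs. The order within WT did not hold after the correction, with Tek at 5.00, 4.86, 5.07 and 4.21 and Tie1 at 4.89, 4.63, 5.04 and 4.45 in WT replicates 1 to 4, so that Tek was the lower of the pair only in replicate 4. The remaining pair, Cdh5 and Pecam1, had log2 differences of 0.61, 0.49, 0.68 and 0.58 in WT and 0.18, 0.63 and 0.19 in C2-/-. C2-/- replicate 2 lay within the WT range, and the change was -0.26 (exact permutation p = 0.171, adjusted p = 0.257), or 0.08 after the G and C correction.

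Eng was lower in every C2-/- library. It had 6.00, 6.08, 6.49 and 5.89 log2 CPM in WT and 4.84, 4.59 and 4.27 in C2-/-, from 64 to 93 reads per C2-/- library. The groups were clearly apart, and WT replicate 4 sat with the other WT libraries. Eng was 2.92-fold lower (log2 change -1.55, SE 0.22, limma adjusted p = 0.000749), and the change was -1.32 against WT replicate 4 alone. After the G and C correction the change was -0.17 (SE 0.20, adjusted p = 0.583). Eng shares 61 exon bases, 1.51% of its exon length, with Fpgs on the opposite strand, and whether reads were counted by strand is not given in the sources used here, so reads in that stretch cannot be assigned to either gene.

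The surface and secreted markers went in opposite directions. Emcn had 3.72, 3.86, 4.20 and 5.36 log2 CPM in WT replicates 1 to 4 and 5.63, 5.43 and 5.20 in C2-/-. WT replicate 4 lay within the C2-/- range and above the other WT libraries by more than 1 log2 unit. Emcn was 2.20-fold higher over all libraries (log2 change 1.14, SE 0.37, limma adjusted p = 0.0288), 1.5 without WT replicate 4, but 0.06 against WT replicate 4 alone. Leaving out any single library other than WT replicate 4 (6 of 7 cases) ended the call, and the change was 0.22 after the G and C correction (adjusted p = 0.666). Vwf had 4.48, 4.75, 4.65 and 4.56 in WT and 3.61, 3.89 and 3.27 in C2-/-, from 35 to 46 reads per C2-/- library. The WT libraries lay close together and all C2-/- libraries were below them. Vwf was 2.03-fold lower (log2 change -1.02, SE 0.25, adjusted p = 0.00791), but 0.24 after the G and C correction, and -0.97 against WT replicate 4 alone, which did not pass.

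Sox17, whose higher level in C2-/- was the reason for the list, had 3.13, 3.53, 3.65 and 3.94 log2 CPM in WT and 4.84, 5.20 and 4.59 in C2-/-. In reads this was 67 to 193 per WT library and 83 to 116 per C2-/- library. All 3 C2-/- libraries were above all 4 WT libraries, and WT replicate 4 was the nearest of these. The mean was 2.49-fold higher in C2-/- (log2 change 1.32, SE 0.28), and the log2 change was 0.94 against WT replicate 4 alone. Unlike Emcn, Sox17 has a transcript richer in G and C than the median gene, and its log2 change was larger after the correction, at 1.93, and 2.11 when WT replicate 4 was also left out. Sox17 shares 804 exon bases, 16.8% of its exon length, with the transcript Gm37587 on the opposite strand, which is not in the table, and without known strand use in counting the reads there cannot be told apart.

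**Figure D2:**
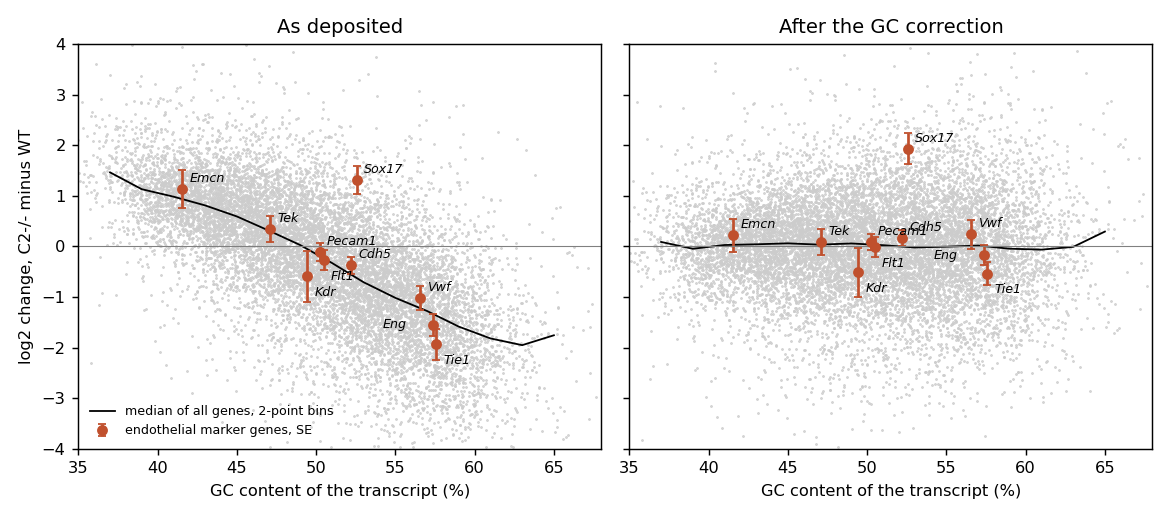
The log2 change of C2-/- from WT against the G and C content of the transcript in percent, as deposited on the left and after the correction on the right. Grey points are all 12173 matched genes with their median per 2-point bin as a black line, and orange points with SE bars are the 10 endothelial genes, of which most lie near the line on the left, Kdr and Tie1 lie below it, and Sox17 lies above it at 1.32 and, on the right, at 1.93.

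Among the 10 genes the log2 change and transcript G and C content had Pearson's r = -0.76, and -0.96 over the 9 without Sox17, as a description of genes measured in the same libraries. Emcn and Tek, with the lowest G and C content, had the 2 most positive changes of the 9, and Vwf, Eng and Tie1, with the highest, had the 3 most negative. After the correction the changes of the 9 genes ran only from -0.54 in Tie1 to 0.24 in Vwf. The part of G and C content in the differences was not tested beyond this correction.

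Per kilobase of merged exons, Cdh5 had the highest level in both groups. In WT its mean was 33.2 CPM per kilobase (SD 4.64, n = 4), followed by Eng at 17.4, Pecam1 at 14.8, Tie1 at 8.59, Kdr at 8.49, Tek at 5.52, Flt1 at 4.37, Emcn at 4.01, Sox17 at 2.52 and Vwf at 1.52. Cdh5 was apart from Eng, Pecam1 from Tie1 and Sox17 from Vwf, and all other neighbours in this order overlapped between libraries. In C2-/- the order began with Cdh5 at 25.5 (SD 2.69, n = 3) and Pecam1 at 13.7, each apart from the next, then Emcn at 7.94, Tek at 6.93, Sox17 at 6.23, Eng at 5.91, Kdr at 4.82, Flt1 at 3.65 and Tie1 at 2.19, with overlap between each of these neighbours. Vwf, at 0.75, was apart from Tie1. As deposited, Eng went from rank 2 in WT to rank 6 in C2-/- and Tie1 from rank 4 to rank 9, while Emcn went from rank 8 to rank 3 and Sox17 from rank 9 to rank 5. With the length of the longest transcript in place of merged exons, Pecam1 came before Eng in WT, at 26.8 against 20.5 CPM per kilobase, with overlapping ranges, and Cdh5 was not apart from Pecam1 in either group. On that scale Eng went from rank 3 to rank 8, Tie1 from rank 5 to rank 9, Emcn from rank 7 to rank 3 and Sox17 from rank 9 to rank 4. Per kilobase of merged exons after the G and C correction, Eng was at rank 3 in both groups and Emcn went from rank 7 to rank 6, while Tie1 went from rank 6 to rank 9 and Sox17 from rank 9 to rank 4.

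**Figure D3:**
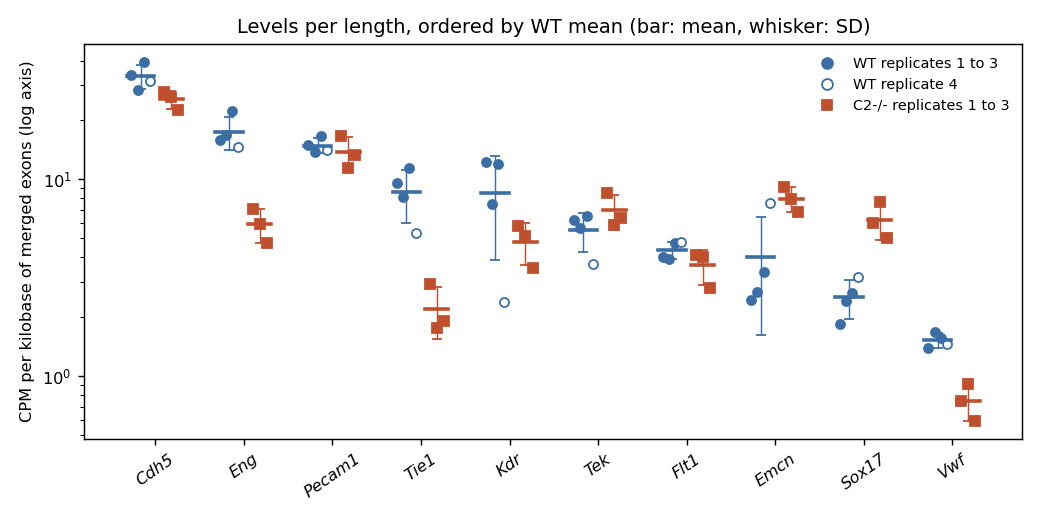
CPM per kilobase of merged exons on a log axis for each gene in each library, ordered by the WT mean, with circles for WT (open for replicate 4), squares for C2-/-, bars for means and whiskers for the SD. Cdh5 is highest in both groups, and the squares of Eng, Tie1 and Vwf lie below the circles while those of Sox17 lie above.

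A score per library, the mean over the 10 genes of the log2 value minus the gene's mean over the 7 libraries, was 0.12, 0.06, 0.37 and -0.03 in WT replicates 1 to 4 and 0.04, -0.15 and -0.41 in C2-/- replicates 1 to 3. C2-/- replicate 1 lay inside the WT range and the other 2 below it. The mean difference was -0.31, with a pooled SD within groups of 0.196, and it was -0.49 without Sox17, -0.19 without C2-/- replicate 3, -0.15 against WT replicate 4 alone and -0.15 with each library centred on its median. After the G and C correction the score was -0.11, -0.17, 0.12 and -0.10 in WT and 0.14, 0.26 and -0.15 in C2-/-, a difference of 0.15. The sum of the 10 genes was 488 to 673 CPM in WT and 376 to 501 CPM in C2-/-, which overlapped. As the genes were chosen with results known, the score was given no p.

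**Figure D4:**
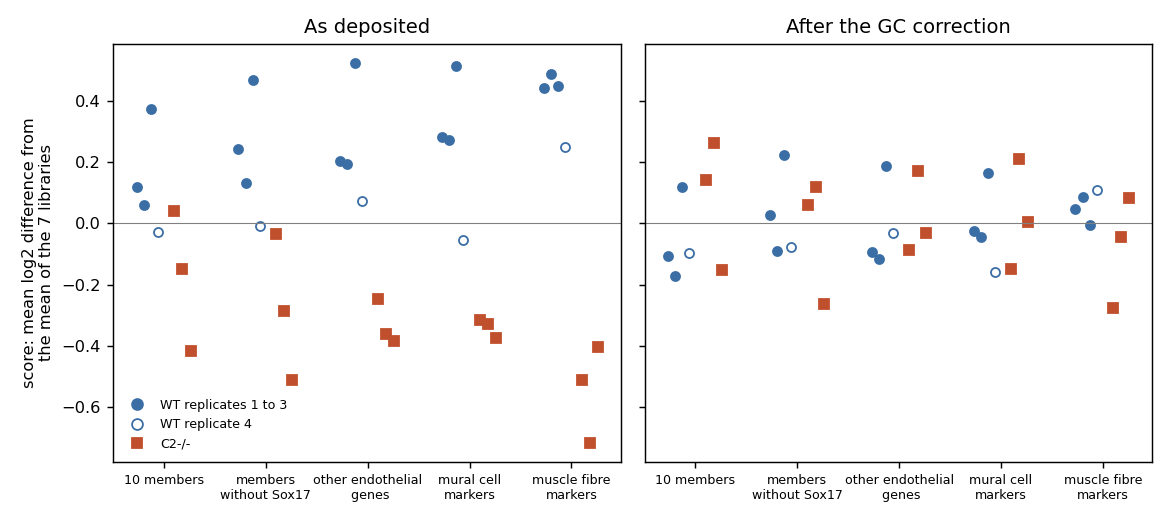
The score of each library (mean log2 difference from the mean of the 7 libraries) for the 10 endothelial genes, the 9 without Sox17, 30 other endothelial genes, 13 mural cell markers and 12 muscle fibre markers, as deposited and after the G and C correction, with circles for WT, open circles for WT replicate 4 and squares for C2-/-. On the left the C2-/- libraries sit below WT in every set other than the 10 endothelial genes, where C2-/- replicate 1 at 0.04 lies inside the WT range, and on the right the groups overlap in every set.

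The ligands and co-receptors of the VEGF receptors were measured in the same libraries. Of 8 genes, 2 rose, where 20.2% of all genes did, and the other 6 did not pass. The median log2 change was -0.16 beside -0.14 over all genes. Vegfa, which encodes the main ligand of both receptors and is made by muscle fibres among other cells, rose by 0.89 on the log2 scale (SE 0.18, limma adjusted p = 0.00352). Nrp1, the co-receptor neuropilin-1, rose by 1.27 (SE 0.19, adjusted p = 0.000908). Both also passed after the G and C correction, at 1.20 and 1.45, where 12.3% of all genes passed higher. The corrected change of Vegfb, 1.68, then passed too, against -0.24 as deposited. Kdr and Flt1 themselves did not pass over all libraries.

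Around TIE2, 3 of 6 genes rose, where 20.2% of all genes did, and the others did not pass. Their median was 0.71, beside -0.14 over all genes, and 0.95 against WT replicate 4 alone, beside -0.12 over all genes. Angpt1, the activating ligand of TIE2, rose by 0.85 (SE 0.28, limma adjusted p = 0.0327), but stood at -0.31 after the G and C correction. Angptl1, an angiopoietin-related secreted protein, rose by 2.08 (SE 0.31, adjusted p = 0.000977). It was the 1 gene of this list that also passed after the correction, at 1.40, where 12.3% of all genes passed higher. Ptprb, the endothelial phosphatase that acts on TIE2, rose by 0.74 (SE 0.23, adjusted p = 0.0232). Its change was 0.54 after the correction and 0.19 against WT replicate 4 alone. Angpt2, the context-dependent ligand, had a change of 0.68 (SE 0.52, adjusted p = 0.300) from low values.

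Around endoglin, 3 of 13 genes rose and 1 fell, where 20.2% and 25.0% of all genes did. Their median was 0.69, beside -0.14 over all genes, and 0.46 against WT replicate 4 alone, beside -0.12 over all genes. Voom weights on the recovered reads gave 7 higher and 2 lower (22.6% and 26.5% of all genes). Acvrl1, the type I receptor ALK1 with which endoglin acts, fell by 2.06 on the log2 scale (SE 0.57, limma adjusted p = 0.0145), with as few as 3 reads in a C2-/- library, and was at -0.79 after the G and C correction (adjusted p = 0.263). Bmpr2, the type II receptor of the same complex, rose by 1.77 (SE 0.29, adjusted p = 0.00148) and was 0.80 after the correction, still past the threshold, and 0.94 against WT replicate 4 alone, where it was 8.05 log2 CPM beside a WT mean of 7.22. Tgfbr2, the type II TGF-beta receptor, rose by 0.75 (SE 0.19, adjusted p = 0.00971), and was 0.86 after it. Smad9, a signal transducer below BMP receptors, rose by 3.03 (SE 0.58, adjusted p = 0.00278) from 4 to 14 reads per WT library to 15 to 23 per C2-/- library, and was 2.89 after it. After the correction 6 of the 13 genes were higher and none lower by limma, where 12.3% and 8.33% of all genes were. At an unadjusted p under 0.05 there were 6 higher and 1 lower, where 36.4% of all genes were either way.

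**Figure D5:**
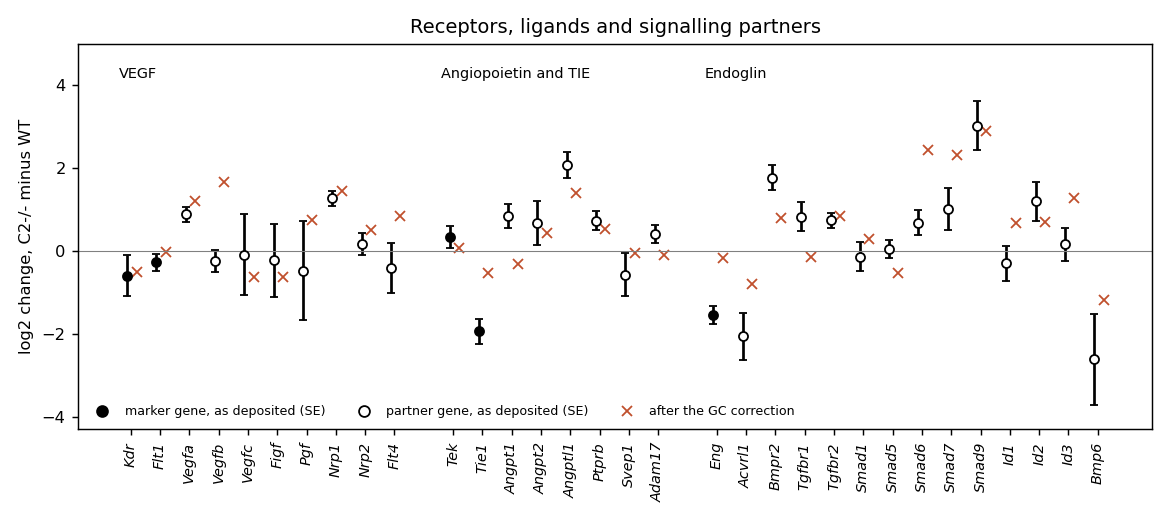
Log2 change of C2-/- from WT for the receptor genes among the endothelial markers (filled circles) and for their ligands, co-receptors and signalling partners (open circles), with SE bars, and the change after the G and C correction (crosses). Tie1, Eng and Acvrl1 lie between -1.55 and -2.06 as deposited and closer to 0 after the correction, whereas Vegfa, Nrp1 and Smad9 lie above 0 both ways.

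Among 16 genes of Sox17's family and of arterial Notch signalling, 2 rose and 5 fell, where 20.2% and 25.0% of all genes did. Their median was -0.84, beside -0.14 over all genes, and -0.37 against WT replicate 4 alone. Rbpj, the DNA-binding partner of Notch, rose by 1.34 (SE 0.26, limma adjusted p = 0.00301). Hey2, a Notch target of arteries, rose by 2.57 (SE 0.82, adjusted p = 0.0275). Hey2 had 0 to 9 reads per WT library and 3 to 13 per C2-/- library, near the floor of 3 reads in both groups. The Notch ligand gene Jag2 fell by 4.24 (SE 1.11, adjusted p = 0.0115) and the endothelial receptor gene Notch4 fell by 3.69 (SE 0.68, adjusted p = 0.00227), and both had at most 29 reads in a C2-/- library. After the G and C correction Rbpj was at 0.65, Hey2 at 2.16, Jag2 at -2.38 and Notch4 at -1.89, and none of these 4 passed (adjusted p-values of 0.0798 to 0.124). The 1 gene of the 16 that passed after it was Notch1, at 1.66 against 0.32 as deposited, where 12.3% of all genes passed higher. Notch1 was named after its value was seen. Sox18, from the same subfamily as Sox17 and with 60.9% G and C, fell by 1.72 as deposited and stood at 0.05 after the correction. Sox7, the other gene of that subfamily, had a change of -0.02 as deposited and 0.33 after it.

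Of 30 other endothelial genes, 7 rose, 13 fell and 10 did not pass, where 20.2% of all genes rose and 25.0% fell. Their median was -0.60, beside -0.14 over all genes. Erg, the ETS factor that maintains endothelial identity, rose by 1.66 on the log2 scale (SE 0.28, limma adjusted p = 0.00159) and was at 1.97 after the G and C correction, past the threshold both times, and at 0.94 against WT replicate 4 alone. Adgrl4, an adhesion receptor of vessels, rose by 1.43 (SE 0.21, adjusted p = 0.000876), but was at 0.58 after the correction and did not pass (adjusted p = 0.0937). The junction regulator Rasip1 fell by 2.45 (SE 0.51, adjusted p = 0.00403) and Ushbp1 fell by 2.62 (SE 0.34, adjusted p = 0.000543), and after the correction they were at -0.46, which did not pass, and -1.05, which did. After the correction 3 of the 30 genes were higher and 4 lower, where 12.3% and 8.33% of all genes were. Not all of them were among those that passed as deposited. The median of the 30 against WT replicate 4 alone was -0.29. Among 12 junction partners of Cdh5 and Pecam1, 2 rose (Tjp1 by 1.28 and Jam2 by 0.96) and 3 fell, where 20.2% and 25.0% of all genes did. The largest falls were in Cldn5 (-2.31) and Esam (-1.71), and the median was 0.03, beside -0.14 over all genes. After the correction 2 of the 12 were higher and 1 lower, where 12.3% and 8.33% of all genes were. Tjp1 at 0.98 and Esam at -0.91 were past the threshold, and Jam2 at 0.53 and Cldn5 at -0.58 were not. Set against WT replicate 4 alone, the median of the 12 was 0.34.

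Markers of other cells moved beside the endothelial genes. Muscle fibre markers summed to 220889 to 249287 CPM in WT and 129277 to 146419 CPM in C2-/-. Of 12, 7 fell, where 25.0% of all genes did, led by Acta1 (-2.02) and Ckm (-1.86), while Myh4 (-0.21) and Tnnt3 (-0.28) did not pass. After the G and C correction 2 of the 12 were lower and none higher by limma, where 8.33% and 12.3% of all genes were. The median of the 12 went from -1.14 to 0.12 with the correction. With WT replicate 4 as the only control it was -0.95 as deposited. After the correction Ckm, at -1.0, still passed, whereas Acta1, at -0.70, did not (adjusted p = 0.0941). Fibroblast markers summed to 495 to 839 CPM in WT and 1557 to 1908 CPM in C2-/-. Of 8, 5 were higher, among them Dcn (1.94) and Col1a1 (1.45), and 1 lower (Pi16, -2.21), where 20.2% and 25.0% of all genes were. After the correction 3 were higher, where 12.3% of all genes were, among them Dcn (1.12) and Col1a1 (3.01). Pi16, at -1.20, did not pass. Against WT replicate 4 alone the median of the 8 was 0.48 beside 0.87 over all libraries, with Dcn at 1.62 and Col1a1 at 0.61. Mural cell markers, for the pericytes and smooth muscle around vessels, summed to 746 to 1110 CPM in WT and 1389 to 1866 CPM in C2-/-. That sum rests on Abcc9, which rose by 1.53 and is also made by muscle fibres. As deposited 1 of the 13 markers rose and 4 fell, including Mcam (-1.53) and Notch3 (-1.12), where 20.2% and 25.0% of all genes did. After the correction 2 of the 13 were higher, Abcc9 (1.16) among them, and none lower by limma, where 12.3% and 8.33% of all genes were. At an unadjusted p under 0.05 there were 3 higher and 0 lower, where 36.4% of all genes were either way. Mcam was then at -0.72 (limma adjusted p = 0.216) and Notch3 at 0.51 (adjusted p = 0.229). Against WT replicate 4 alone the change of Abcc9 was 0.62, and the median of the 13 was 0.19, beside -0.53 over all libraries.

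Lymphatic endothelial markers had low levels, at 14.4 to 37.8 CPM summed in WT and 27.7 to 45.3 CPM in C2-/-. Of 5, 1 rose, where 20.2% of all genes did. This was Mmrn1, at 3.58 on the log2 scale and 2.74 after the correction, past the threshold both times. Mmrn1 had 1 to 3 reads per WT library and 5 to 15 per C2-/- library. Platelet markers, which matter for Vwf, summed to 6.75 to 15.0 CPM in WT and 2.25 to 12.4 CPM in C2-/-. None of 4 passed by limma, at an unadjusted p under 0.05, by voom, or by limma after the correction (0 in each case), where 45.2% of all genes passed by limma. Only 4 of 7 listed platelet markers were measured, some with 0 reads in a C2-/- library, so they say little about platelets. Their median change against WT replicate 4 alone was -0.96. Leukocyte markers summed to 60.8 to 82.0 CPM and 62.7 to 98.7 CPM. Of 10, 2 were higher (Itgam, 2.07, and Mrc1, 1.51), where 20.2% of all genes were. The 2 lower were C1qa (-4.11, with 0 to 7 reads per C2-/- library) and C1qc (-2.40, with 0 to 11), where 25.0% of all genes were lower. After the correction only Itgam passed, at 2.06, where 12.3% of all genes were higher and 8.33% lower. Mrc1 was then at 0.80, C1qa at -2.48 and C1qc at -1.0. Set against WT replicate 4 alone, the median change of the leukocyte markers was 0.37, beside -0.12 over all genes. The single red cell marker measured, Alas2, fell by 1.52 with 4 to 6 reads per C2-/- library, and was at -0.79 after the correction (adjusted p = 0.215). Neither Mmrn1 nor Alas2 passed against WT replicate 4 alone. No marker of these lists was at 0 reads in all 3 C2-/- libraries. The part of these other cells in the endothelial values was not tested.

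The genes whose pattern over the 7 libraries was most like the score of the 10 endothelial genes were Ntn4 (Pearson's r = 0.98 as a measure of likeness), Atp9a (0.96), Ndufa10 (0.96), Clip2 (0.96) and Nxn (0.95), out of 10639 genes compared. Ntn4 encodes netrin-4, a basement membrane protein.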

How the data were processed

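Poly(A) RNA of TA muscle from 4 WT and 3 C2-/- mice was sequenced, and groups and replicate numbers were taken from the sample titles. The authors aligned cleaned reads to GRCm38.p6 with HISAT, counted them per gene with featureCounts 1.5.2, applied TMM scaling in edgeR and deposited log2 CPM values of 12239 genes. Strand use in counting and the gene filter are not given in the sources used here. A further deposited table holds the authors' own limma/voom comparison (fold changes and p-values) and was not used.

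Each log2 value equalled that of a whole number of reads plus 0.5, and 100% of the values came out whole within 0.01 reads. No pair of libraries agreed within sampling noise (chi-square per degree of freedom at least 9.13), so all 7 were counted as separate samples. The main test was limma 3.58.1 in R 4.3.3 (lmFit, eBayes with trend) on the deposited values with genotype as the only term, two-sided, with Benjamini-Hochberg adjustment over 12239 genes. SE values are those of the fit. The G and C correction removed a natural spline with 5 degrees of freedom from each library, over the 12173 genes (99.5%) matched to GENCODE M21, 355 of them by an older symbol. Ratios within a library were compared by exact permutation over 35 splits. The fit was also run on simulated counts of the same 12239 genes. These held no trend with G and C content, so the run does not test the fit under such a trend.

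The genes and lists were chosen with earlier results of these data known. Named were all 10 endothelial genes and, for each list, the 2 largest rises and 2 largest falls past the threshold whose higher group averaged 1 or more on the log2 scale, while ligands and receptors of the VEGF, angiopoietin and endoglin lists could also be named. Myh4 and Tnnt3 were named as defining fibre markers, and Ptprb, Sox7, Sox18 and Notch1 after their values were seen. The alternatives were other scalings, offsets, filters, weights, thinning to the smallest read total, thresholds and omitted libraries.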

Additional observations from a re-analysis of the deposited data

How the results depend on the processing

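Without each library in turn, the number of the 9 tested genes higher in C2-/- ran from 0 to 1, Pecam1 ran from -0.26 to 0.0060 (without C2-/- replicate 2), the Kdr to Flt1 ratio from -0.89 to -0.02, the Cdh5 to Pecam1 ratio from -0.40 to -0.18, and the Tek to Tie1 ratio from 2.21 to 2.35, where 6 libraries cannot give an exact p below 0.1 or 0.06667. The number higher was 0 with the G and C correction, with G and C and length corrected, without the trend, at an adjusted p under 0.01, against WT replicate 4 alone, and with the correction against WT replicate 4 alone or without it. The number lower was 0 with the G and C correction, with length added, and with the correction against WT replicate 4 alone. The score difference was 0.15 with the G and C correction and 0.21 with length added. Against WT replicate 4 alone the Tek to Tie1 ratio changed by 2.18, with no test, and the Kdr to Flt1 ratio by 1.40, the opposite sign to that over all libraries. The Cdh5 to Pecam1 ratio changed by 0.081 with the G and C correction and 0.077 with length added. Signs turned for Pecam1 with median centring (0.042), which raised every change by 0.16, and with the G and C correction (0.090), with length added (0.18), with the correction against WT replicate 4 alone (0.068) or without that library (0.10). In that order of the last 4 settings Cdh5 was at 0.17, 0.26, 0.085 and 0.20. Vwf was at 0.24 with either correction and at 0.32 with the correction without WT replicate 4. Kdr was at 0.99 against WT replicate 4 alone and 1.02 with the correction added. Flt1 was at 0.0024 with G and C and length corrected and 0.056 with the correction without WT replicate 4, where Tek was at -0.11, and Emcn was at -0.63 with the correction against WT replicate 4 alone. The cause was not tested. The 2 settings that join the correction with the choice of WT libraries were added after seeing the data. The replicate numbers did not pair the samples (correlations of 0.05, -0.06 and -0.05 between same-numbered libraries). With the replicate block, a fit that drops WT replicate 4, 1 of the 9 genes was higher and 4 were lower (22.0% and 26.5% of all genes), Kdr among them at -1.12, and library quality weights also brought Kdr past the threshold (-1.09). The planned count test on recovered reads was not run, because the deposited unit is log2, and voom on those reads gave 1 of the 9 higher and 3 lower (22.6% and 26.5% of all genes).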
